A study of Mus musculus with 2 samples.

Results

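CpG methylation was examined along 9 genes whose products write, maintain or remove DNA methylation: Dnmt1, Uhrf1, Dnmt3a, Dnmt3b, Dnmt3l, Tet1, Tet2, Tet3 and Tdg. They were chosen by name, and each was read over its annotated body and 3 kb to either side. These windows held 1205 of the 1790826 CpGs of the deposited table, 15.5% of the 7783 CpGs that the genome has there. Methylation was measured by RRBS (reduced-representation bisulfite sequencing) with extended coverage, in which restriction fragments are converted with bisulfite and unmethylated cytosine is then read as thymine. Bisulfite does not separate 5-methylcytosine from 5-hydroxymethylcytosine, the first product of the TET enzymes. The first library came from Dnmt1+/+ and the other from Dnmt1-/- mouse embryonic fibroblasts (MEFs), cultured cells from mouse embryos. Per the study, cells called Dnmt1-/- carry a hypomorphic Dnmt1 allele on both chromosomes, and both lines also lack trp53, the gene for p53. The study took both lines from earlier work, and neither the labels nor the methods describe a second culture of either genotype for RRBS. RRBS carries no expression values, so the fibroblast label was not checked against marker genes.

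There was 1 library per genotype. Differences are therefore between libraries, and intervals cover counting error only. The table listed CpGs with at least 10 calls in each library, and median depth over the 1205 CpGs was 31 calls in Dnmt1+/+ and 35 in Dnmt1-/- (lowest 10, highest 218). Some CpGs had far more calls than close neighbours, such as 114 and 144 at position 20748213 of Dnmt1 beside 57 and 72 at 20748258. Whether reads were counted more than 1 time at such CpGs was not tested. If they were, p-values there are too small and intervals too narrow. CpGs inside CCGG or TCGA, the recognition sites of the restriction enzymes MspI and TaqI, read far above their neighbours where these were low (which enzymes were used for RRBS is not given in the sources used here). In the Dnmt1 promoter 11 such CpGs averaged 50.04% in Dnmt1+/+ and 51.4% in Dnmt1-/-, beside 0.0871% and 0.454% at the other 28 CpGs. In the Dnmt1 body the 49 such CpGs were level with the other 39 in Dnmt1+/+ (94.4% and 94.3%) and above them in Dnmt1-/- (61.0% and 28.7%). The cause was not tested. Unless stated, levels are means over the 754 CpGs outside these sites, with a 95% Wilson interval on their pooled calls where one is given. Pooled calls give more weight to deep CpGs, so an interval need not hold the mean.

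The enzymes fall into 3 roles. Dnmt1 restores methylation on the daughter strand when DNA has been copied, and Uhrf1 binds the hemimethylated CpGs left by replication and brings Dnmt1 to them. Dnmt3a and Dnmt3b methylate DNA that was unmethylated on both strands, and Dnmt3l is a relative without catalytic activity that stimulates them, mainly in germ cells. Tet1, Tet2 and Tet3 oxidise 5-methylcytosine, and Tdg is a glycosylase that cuts out thymine from G-T mismatches and the further oxidised forms of methylcytosine.

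The regions on which the comparison turned are printed here 5′ to 3′ on the strand of the gene, from the NCBIM37 (mm9) reference. Capitals mark the measured CpGs outside CCGG and TCGA, and all other letters are lower case. The first sequence, chr9:20757068-20757231 on the minus strand, runs from the first coding base of Dnmt1 in GENCODE into the first intron and shows a start that was almost free of methylation in both libraries.
Dnmt1 start: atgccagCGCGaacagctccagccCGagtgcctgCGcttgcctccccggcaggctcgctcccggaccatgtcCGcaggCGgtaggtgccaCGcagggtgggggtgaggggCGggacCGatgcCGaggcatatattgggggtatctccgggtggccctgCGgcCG
The next pair flanks a start inside Dnmt3a, chr12:3891494-3891727 and chr12:3891918-3892169 on the plus strand, the only place in the 9 genes where CpGs outside CCGG and TCGA were called higher in Dnmt1-/-.
Dnmt3a internal start, upstream: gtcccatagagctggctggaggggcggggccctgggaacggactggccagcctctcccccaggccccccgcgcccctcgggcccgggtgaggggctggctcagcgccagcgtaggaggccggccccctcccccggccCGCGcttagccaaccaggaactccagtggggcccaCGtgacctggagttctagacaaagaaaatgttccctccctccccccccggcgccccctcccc
Dnmt3a internal start, intron: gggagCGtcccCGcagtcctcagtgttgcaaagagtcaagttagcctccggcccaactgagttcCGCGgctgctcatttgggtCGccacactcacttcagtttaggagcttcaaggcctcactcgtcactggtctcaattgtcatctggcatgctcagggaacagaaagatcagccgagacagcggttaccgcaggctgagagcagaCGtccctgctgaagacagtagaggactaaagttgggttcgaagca
The stretch at chr10:77505210-77505402 on the plus strand lies in the first intron of Dnmt3l, opposite an exon of Aire, and holds the measured CpGs nearest to the Dnmt3l start.
Dnmt3l start: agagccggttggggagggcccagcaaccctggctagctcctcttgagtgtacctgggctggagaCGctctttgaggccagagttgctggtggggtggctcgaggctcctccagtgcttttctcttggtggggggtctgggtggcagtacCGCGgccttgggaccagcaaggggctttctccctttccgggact
Last come 2 coding exons that were almost fully methylated in Dnmt1+/+ and ended far apart in Dnmt1-/-, chr10:62342337-62342625 on the minus strand for Tet1 and chr6:83354415-83354672 on the minus strand for Tet3.
Tet1 exon: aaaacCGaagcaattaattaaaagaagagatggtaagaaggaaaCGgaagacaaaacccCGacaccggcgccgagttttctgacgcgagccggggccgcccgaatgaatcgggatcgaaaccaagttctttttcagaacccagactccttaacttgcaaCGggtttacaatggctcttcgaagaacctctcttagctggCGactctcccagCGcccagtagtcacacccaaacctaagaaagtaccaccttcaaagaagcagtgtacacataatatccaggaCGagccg
Tet3 exon: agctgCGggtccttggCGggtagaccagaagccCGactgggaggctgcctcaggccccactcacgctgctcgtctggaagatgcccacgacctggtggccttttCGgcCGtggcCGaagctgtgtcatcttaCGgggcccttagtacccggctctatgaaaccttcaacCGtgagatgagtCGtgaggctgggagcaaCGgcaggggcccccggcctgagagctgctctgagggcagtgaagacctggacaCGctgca

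Across the 9 genes, Fisher's exact test (two-sided, Benjamini-Hochberg adjusted over all CpGs of the table, threshold 0.05) called 232 of 754 CpGs lower in Dnmt1-/-, or 30.8%, against a background of 44.2% over the table. Another 5 were called higher, 0.663% against 0.635%. With the CpGs in CCGG and TCGA included, 417 of 1205 were lower, 34.6% against 43.7%, and 7 higher, 0.581% against 0.462%. The test compares the 2 libraries, not the genotypes. CpGs that started high carried most of the calls: 193 of the 238 at 80% or more in Dnmt1+/+ were lower (81.1%, background 88.2%), and the median change of all lower calls was -60.9 points. Among the 453 at 20% or less in Dnmt1+/+, 4 were called lower and 4 higher. The background for higher calls was 1.05%, and that for lower calls in this class was not computed, so neither count is read as a result. The highly methylated CpGs lay in CpG-poor sequence, with a median of 6.5 CpGs within 100 bp, whereas those at 20% or less had 23. Of the CpGs at 80% or more in Dnmt1+/+, 15 had no methylated call in Dnmt1-/- and 28 were still at 80% or more.

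**Figure D1:**
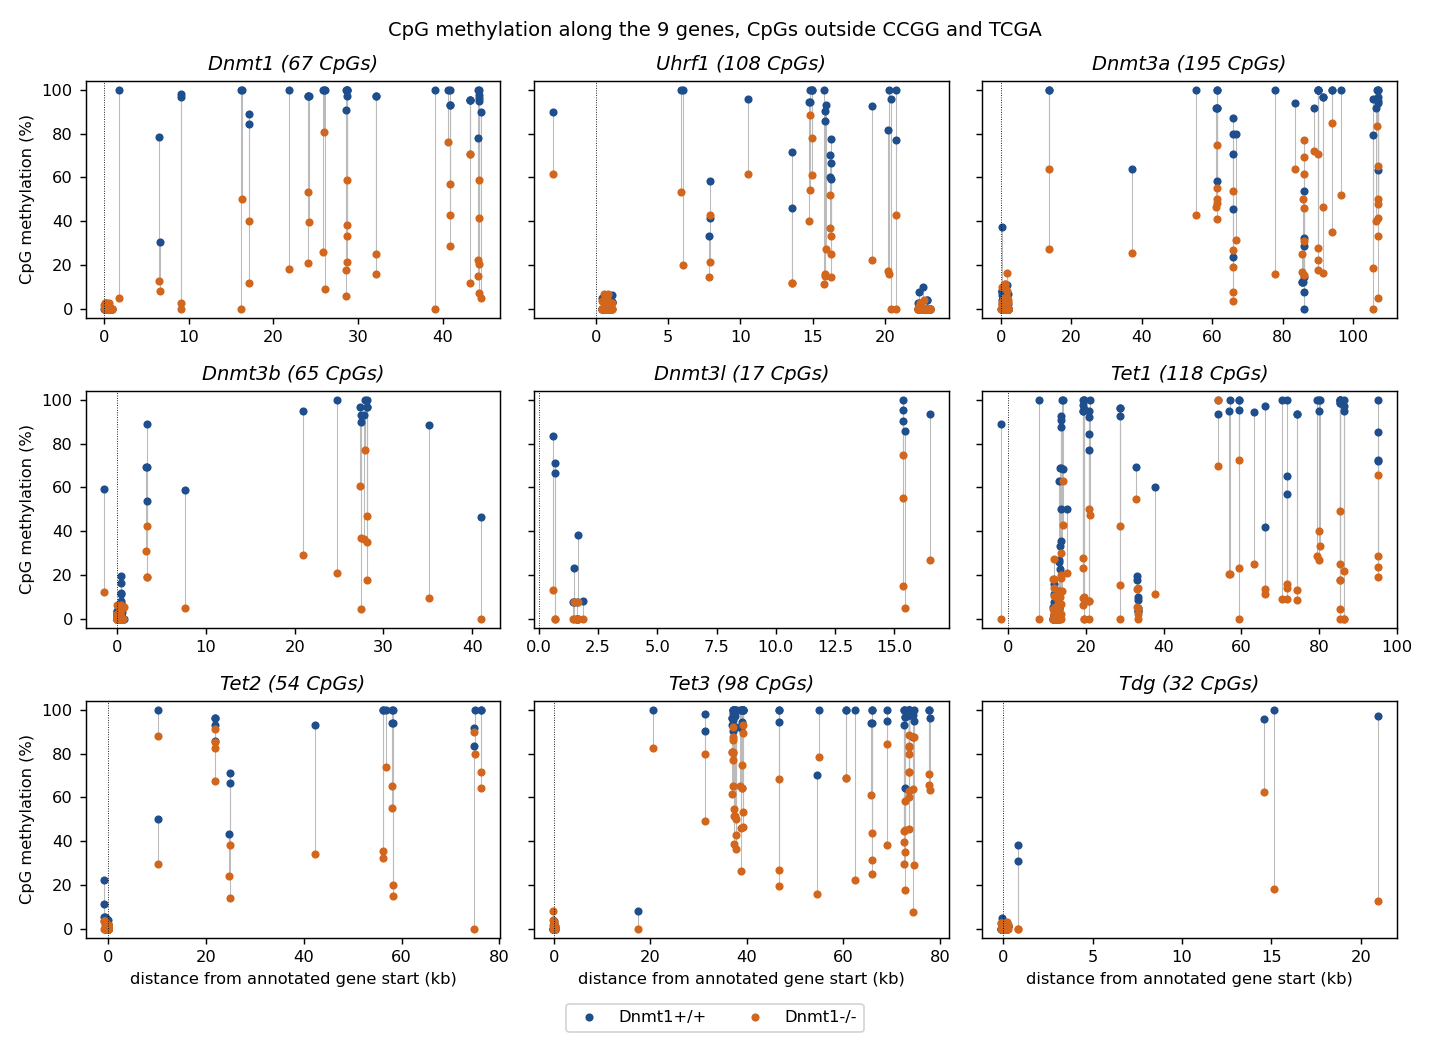
CpG methylation in percent against distance from the annotated gene start in kb, for the 754 CpGs outside CCGG and TCGA, 1 panel per gene. Blue points are Dnmt1+/+ and orange points Dnmt1-/-, joined at each CpG. Most starts sit near 0 in both libraries, gene bodies drop by different amounts, and Dnmt3a has a group of CpGs 85.7 kb in where orange lies above blue.

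Dnmt1 (chr9:20711650-20757317, minus strand, 45.7 kb) had 127 measured CpGs, 67 of them outside CCGG and TCGA. Its start was unmethylated in both libraries. The 28 CpGs within 1 kb of it averaged 0.0871% in Dnmt1+/+ and 0.454% in Dnmt1-/-, and in the printed start each CpG was at 2.70% or less in Dnmt1-/-. The gene body outside the promoter showed the opposite picture. Its 39 CpGs averaged 94.3% in Dnmt1+/+ (pooled interval 94.3 to 96.5%) and 28.7% in Dnmt1-/- (24.5 to 28.6%), and 34 CpGs of the gene were called lower and 0 higher. Exonic CpGs averaged 35.0% in Dnmt1-/- (13 CpGs) and intronic CpGs 25.6% (26 CpGs).

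Levels within the Dnmt1 body varied from 0 to 80.6% in Dnmt1-/-, although 36 of its CpGs started at 80% or more. The 2 body CpGs with the most calls lay in an intron 9.1 kb into the gene and had almost no methylation left. Position 20748213 was at 96.5% in Dnmt1+/+ and 2.78% in Dnmt1-/- (114 and 144 calls), and position 20748218 at 98.2% and 0% (113 and 144 calls). Nearby position 20748258 had 57 and 72 calls, and whether reads were counted more than 1 time at the other 2 was not tested. By contrast, position 20731356 was at 100% in Dnmt1+/+ and still at 80.6% in Dnmt1-/-, with 29 and 36 calls. In the 1 kb tile that starts at 20728001, the only body tile of Dnmt1 with at least 5 CpGs, the mean was 98.0% in Dnmt1+/+ and 29.2% in Dnmt1-/-. A further RefSeq start lies 7.02 kb upstream, outside the window. Oocytes are known to use an upstream Dnmt1 start, and whether it is this one was not tested. The 4 CpGs within 1 kb of it averaged 91.4% in Dnmt1+/+ and 25.3% in Dnmt1-/-, and all 4 were called lower, values near those of the gene body and far from those of the start of the gene record.

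Uhrf1 (chr17:56442744-56462909, plus strand) had 108 such CpGs, 20 of them called lower and 0 higher. The 40 CpGs at its start averaged 1.13% in Dnmt1+/+ (0.773 to 1.83%) and 1.25% in Dnmt1-/- (0.625 to 1.59%). Its body outside promoters averaged 74.6% in Dnmt1+/+ and 27.3% in Dnmt1-/- over 18 CpGs. Neighbouring 1 kb tiles behaved differently: the tile from 56457001, around an annotated internal start, was at 97.7% and 64.3% (5 CpGs), and the tile from 56458001 at 80.5% and 27.1% (8 CpGs). The downstream flank of Uhrf1 reaches the start of Kdm4b, where 38 CpGs averaged 0.892% in Dnmt1+/+ and 0.373% in Dnmt1-/-.

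Dnmt3a (chr12:3806007-3914443, plus strand, 108 kb) had starts that differed widely in methylation. At the upstream starts, 148 CpGs averaged 1.64% in Dnmt1+/+ (1.24 to 1.73%) and 0.978% in Dnmt1-/- (0.599 to 0.943%), with no call in either direction. An internal start 85.7 kb into the gene, annotated by both GENCODE and RefSeq, serves a shorter product known as Dnmt3a2. There, 9 CpGs averaged 19.1% in Dnmt1+/+ (15.9 to 26.2%) and 43.5% in Dnmt1-/- (36.1 to 53.2%), 24.4 points higher. All of the 5 higher calls of the 9 genes lay here, and the 1 kb tile from 3891001 was at 12.9% and 49.4% (7 CpGs). Of these 7 CpGs, 3 also lie within 1 kb of the start of AC159324.1, an annotated miRNA gene on the other strand, and 4 of the 5 higher calls were left without them.

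In the upstream sequence printed for this start, the CpGs read in order 12.0%, 12.0% and 12.0% in Dnmt1+/+ and 16.7%, 25% and 50% in Dnmt1-/-. In the intron sequence, the first 4 CpGs read 7.69%, 0%, 32.1% and 14.3% in Dnmt1+/+ and 61.5%, 46.2%, 76.9% and 69.2% in Dnmt1-/-, and all 4 were called. The last 2 read 53.6% and 28.6% in Dnmt1+/+ and 30.8% and 15.4% in Dnmt1-/-, and neither passed the test. The Dnmt1-/- value was thus the higher one at 7 of 9 CpGs, 5 of them past the threshold. Depth was low, 13 to 50 calls in Dnmt1+/+ and 12 to 24 in Dnmt1-/-, and neighbouring CpGs had equal depths, as CpGs read from the same fragments do, so they are not independent. With a depth of at least 20 required, 1 higher call was left. It was the last CpG in capitals of the upstream sequence, position 3891666, with 50 and 24 calls. The 2 CpGs before it had 25 and 12 calls each. Whether reads were counted more than 1 time at position 3891666 was not tested, so this call may rest on fewer reads.

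**Figure D2:**
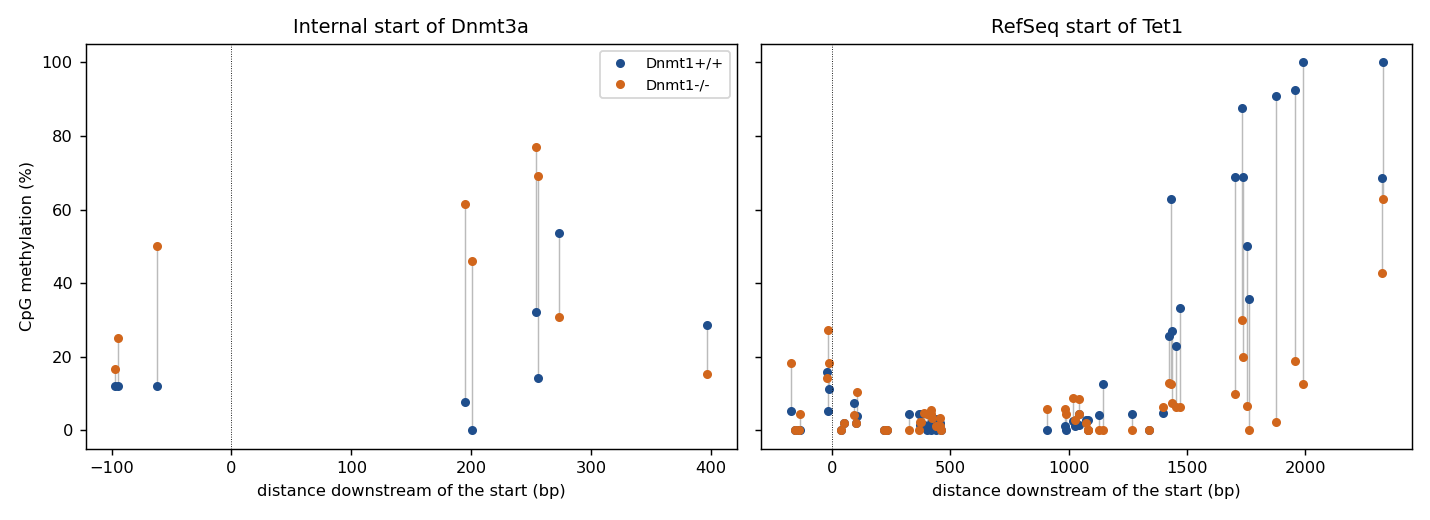
CpG methylation in percent against distance in bp from the internal start of Dnmt3a (left, 9 CpGs) and from the RefSeq start of Tet1 (right), for Dnmt1+/+ (blue) and Dnmt1-/- (orange), joined at each CpG. At Dnmt3a, 7 of 9 orange points lie above their blue partner. At Tet1 both libraries are low up to 1249 bp, blue then climbs, and orange is at 30% or less up to 1999 bp and averages 52.9% at the last 2 CpGs.

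Away from its upstream starts and the internal start at 85.7 kb, Dnmt3a was lower in Dnmt1-/-. Its 27 body CpGs outside promoters averaged 85.3% in Dnmt1+/+ (81.8 to 86.6%) and 38.7% in Dnmt1-/- (36.2 to 42.2%), and 29 CpGs of the gene were called lower. Another internal start, 88.8 kb in, was at 98.3% in Dnmt1+/+ and 42.1% in Dnmt1-/- over 5 CpGs, so the starts within Dnmt3a ran from unmethylated to almost fully methylated in Dnmt1+/+. Among its 1 kb tiles, that from 3867001 was at 88.3% in Dnmt1+/+ and 53.9% in Dnmt1-/-, and that from 3912001 at 96.7% and 52.7%. The tile from 3871001 was at 61.3% and 22.1%.

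Dnmt3b (chr2:153475186-153513466, plus strand) had a start close to unmethylated, 2.49% in Dnmt1+/+ and 1.02% in Dnmt1-/- over 47 CpGs, 3 of which were called lower. The start of 7530422B04Rik lies within 1 kb of these CpGs. Its 16 body CpGs averaged 86.8% in Dnmt1+/+ (87.7 to 92.6% on pooled calls) and 30.7% in Dnmt1-/- (25.2 to 32.5%).

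Dnmt3l (chr10:77504692-77526367, plus strand) was the thinnest measured, with 17 CpGs outside CCGG and TCGA, 8 called lower and 0 higher. Unlike the starts of Dnmt1, Dnmt3a and Dnmt3b, its most upstream start was methylated in Dnmt1+/+. The 3 measured CpGs, those in capitals in the printed sequence, read 83.3%, 71.1% and 66.7% in Dnmt1+/+ and 13.0%, 0% and 0% in Dnmt1-/- with 32 to 46 calls each, and all 3 were called lower. This sequence also lies within 1 kb of a start of Aire. A further 9 CpGs next to an Aire start averaged 10.3% in Dnmt1+/+ and 1.71% in Dnmt1-/-. Both downstream start clusters of Dnmt3l, 7.89 and 12.9 kb in, had no measured CpG within 1 kb. In 4 exonic CpGs between positions 77520052 and 77520141, the mean was 92.9% in Dnmt1+/+ and 37.5% in Dnmt1-/-.

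Tet1 (chr10:62267318-62361866, minus strand, 94.5 kb) had 60 CpGs called lower of 118 and 0 higher. That count was the largest of the 9 genes, but its share of 50.8% was close to 50.7% in Dnmt1 and 49.0% in Tet3. The background over the table was 44.2%. Of the 8 promoters with at least 5 CpGs, over all GENCODE starts, that of Tet1 was the only one that differed by 10 points or more: 67.5% in Dnmt1+/+ and 13.8% in Dnmt1-/- over 21 CpGs. Of all protein-coding promoters with at least 5 CpGs, 23.9% were lower by 10 points and 0.633% higher. The Tet1 value depends on which starts are counted. Its RefSeq start, 11.8 kb inside the GENCODE record, sits in a CpG island that was low in both libraries, 2.58% in Dnmt1+/+ (1.47 to 2.60%) and 4.88% in Dnmt1-/- (2.74 to 4.34%) over 31 CpGs, with no call in either direction. No CpG outside CCGG and TCGA was measured within 1 kb of the start of the GENCODE record. The internal GENCODE start at 19.1 kb was at 97.6% in Dnmt1+/+ and 10.96% in Dnmt1-/- (7 CpGs, all called lower), and that at 84.6 kb at 99.5% and 19.0% (6 CpGs, all called lower). At 33.8 kb, 8 CpGs were at 17.2% and 12.5%, with no call.

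Downstream of the Tet1 island, methylation was higher at a shorter distance in Dnmt1+/+ than in Dnmt1-/-. From 1000 to 1249 bp past the RefSeq start, 9 CpGs averaged 3.60% in Dnmt1+/+ and 2.97% in Dnmt1-/-. From 1250 to 1499 bp the means were 22.6% and 6.45% (8 CpGs, 4 called lower). From 1500 to 1749 bp they were 75% and 20% (3 CpGs), and from 1750 to 1999 bp 73.8% and 8.05% (5 CpGs, all called lower). The 2 CpGs from 2250 to 2499 bp averaged 84.3% and 52.9%, and 1 of them was called lower. The coding exon printed above lies further into the gene, and its 7 CpGs read 94.9 to 100% in Dnmt1+/+ and 0 to 27.9% in Dnmt1-/-. They are the same 7 CpGs as those given for the internal GENCODE start at 19.1 kb, and they count among the 21 promoter CpGs of Tet1.

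Tet2 (chr3:133126643-133207354, minus strand) had 54 CpGs, 12 called lower and 0 higher. Its start was at 1.91% in Dnmt1+/+ and 0.894% in Dnmt1-/- over 32 CpGs. The 20 body CpGs averaged 87.9% in Dnmt1+/+ (85.2 to 90.9%) and 54.5% in Dnmt1-/- (51.9 to 60.0%). A cluster of 4 intronic CpGs 21.9 kb in held both kinds of value. Position 133185464 fell from 96.4% to 67.6%, which passed the test, while position 133185496 was at 85.7% in Dnmt1+/+ and 85.3% in Dnmt1-/- (56 and 68 calls), and position 133185499 at 96.4% and 91.2%, neither of them called. Position 133185464 had 28 and 34 calls, and whether reads were counted more than 1 time at positions 133185496 and 133185499 was not tested. In an exon 58.2 kb in, position 133149185 fell from 100% to 15% (17 and 20 calls).

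Tet3 (chr6:83312367-83391672, minus strand) had high gene body methylation in both libraries. Its start was unmethylated, 0.599% in Dnmt1+/+ and 1.002% in Dnmt1-/- over 30 CpGs, next to a start of B230319C09Rik. The 67 body CpGs averaged 95.6% in Dnmt1+/+ (90.2 to 92.6% on pooled calls) and 58.0% in Dnmt1-/- (52.2 to 55.9%). In total 48 CpGs were called lower and 0 higher. The 1 kb tile from 83354001, which holds the printed exon sequence, was at 97.4% in Dnmt1+/+ and 70.6% in Dnmt1-/- (14 CpGs), the highest Dnmt1-/- tile of the 9 genes. Of the 11 CpGs in capitals in that exon, 10 were at 61.5% or more in Dnmt1-/- and the last was at 38.7%.

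Tdg (chr10:82092573-82113544, plus strand) had an unmethylated start, 3.27% in Dnmt1+/+ (1.11 to 2.37% on pooled calls) and 0.895% in Dnmt1-/- (0.556 to 1.62%) over 29 CpGs. Few CpGs were measured beyond it. An exonic CpG, at position 82113538, was at 97.2% in Dnmt1+/+ and 12.9% in Dnmt1-/- with 36 and 31 calls, and 3 CpGs of the gene were called lower and 0 higher.

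**Figure D3:**
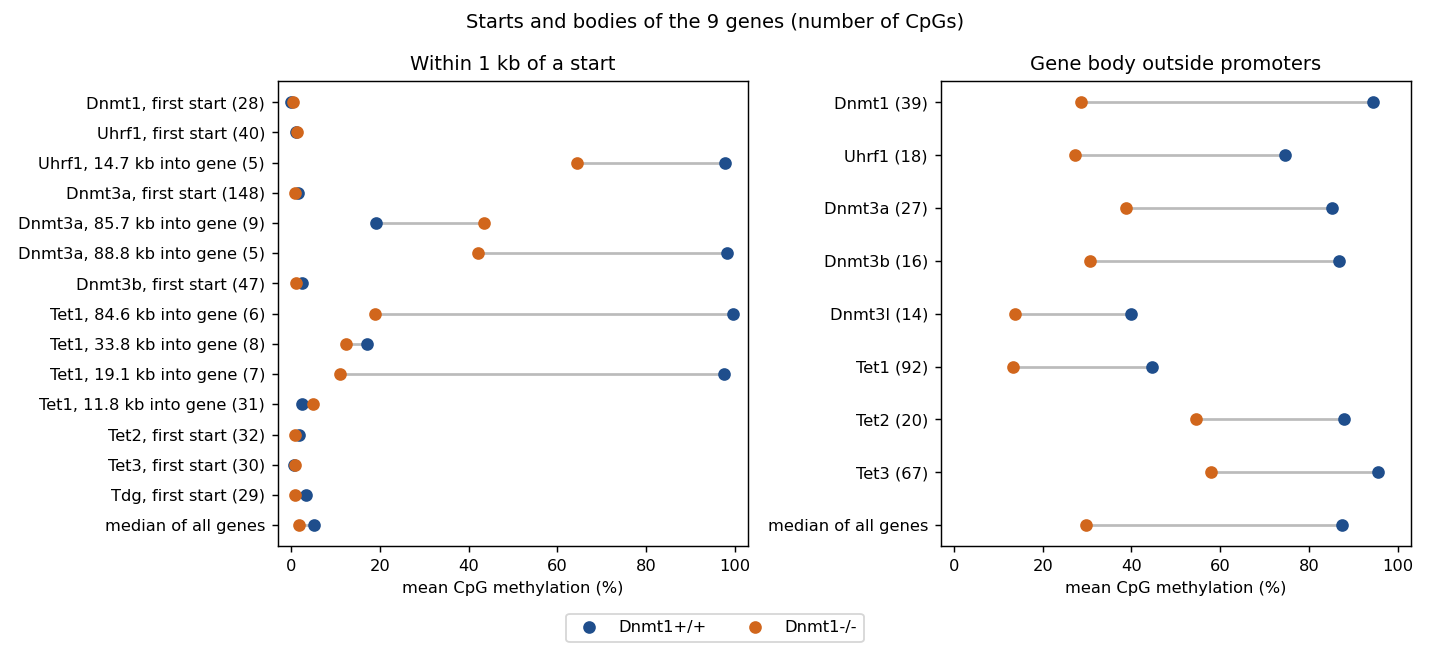
Mean methylation in percent within 1 kb of each start cluster with at least 5 CpGs (left) and in gene bodies outside promoters (right), with the number of CpGs in brackets. Blue is Dnmt1+/+ and orange Dnmt1-/-, and the last line of each panel is the median of all protein-coding genes. Each body is lower in Dnmt1-/-, and the Dnmt3a start 85.7 kb into the gene is higher.

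Seen side by side, the most upstream starts in the windows of Dnmt1, Uhrf1, Dnmt3a, Dnmt3b, Tet2, Tet3 and Tdg were at 3.27% or less in each library, whereas an internal start of Uhrf1 was at 97.7% and another of Dnmt3a at 98.3% in Dnmt1+/+ (5 CpGs each). The median promoter of the 8 genes with at least 5 CpGs, with all GENCODE starts of a gene counted, was 8.28% in Dnmt1+/+ and 3.14% in Dnmt1-/-, beside 5.24% and 1.71% for 13754 protein-coding promoters. All 8 bodies with at least 5 CpGs were lower by 10 points or more, as were 95.2% of 10833 protein-coding bodies. Their median was 86.0% in Dnmt1+/+ and 29.7% in Dnmt1-/-, beside 87.5% and 29.8% for all genes. The median differences were -3.21 points for promoters and -42.1 points for bodies, beside -2.81 points and -51.5 points for all genes (quartiles for bodies -63.0 and -40.3 points). The promoter median of the 8 genes was -1.94 points from pooled calls. With the start of the gene record only, which leaves Tet1 without a measured CpG, it was -1.01 points over the other 7 genes, whose median with all GENCODE starts was -2.82 points. The median of all protein-coding genes was not recomputed under these settings.

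What was left in Dnmt1-/- differed between the 9 genes. To compare genes from the same starting level, the body CpGs at 80% or more in Dnmt1+/+ were taken. In Dnmt1-/- they averaged 61.5% in Tet2 (16 CpGs), 60.2% in Tet3 (64 CpGs), 45.5% in Dnmt3a (20 CpGs), 32.8% in Dnmt3b (12 CpGs), 30.1% in Dnmt1 (36 CpGs) and 25.1% in Tet1 (33 CpGs). The median of 5729 protein-coding genes with at least 10 such CpGs was 38.9% (quartiles 26.4 and 48.8%). Tet2 stood above 95.6% of these genes and Tet3 above 94.7%, while Dnmt1 stood above 31.6% and Tet1 above 23.2%. The Tet2 place rests on few fragments, some of low depth (12 and 10 calls at position 133132567). With a depth of at least 20 required, Tet2 had fewer than 10 such CpGs, and no mean was computed for it. In Tet3, 43 of 64 CpGs were at 50% or more and 2 at 20% or less in Dnmt1-/-, whereas in Tet1 5 of 33 were at 50% or more and 16 at 20% or less. Uhrf1, Dnmt3l and Tdg had 8, 5 and 1 such CpGs and averaged 28.4%, 35.3% and 12.9%. With the CpGs in CCGG and TCGA included, the means were 48.0% in Dnmt1, 53.2% in Dnmt3b and 47.0% in Tet1, so the gap to Tet3 (63.6%) and Tet2 (67.8%) was smaller. With 1 library per genotype, this order has no replicate check.

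**Figure D4:**
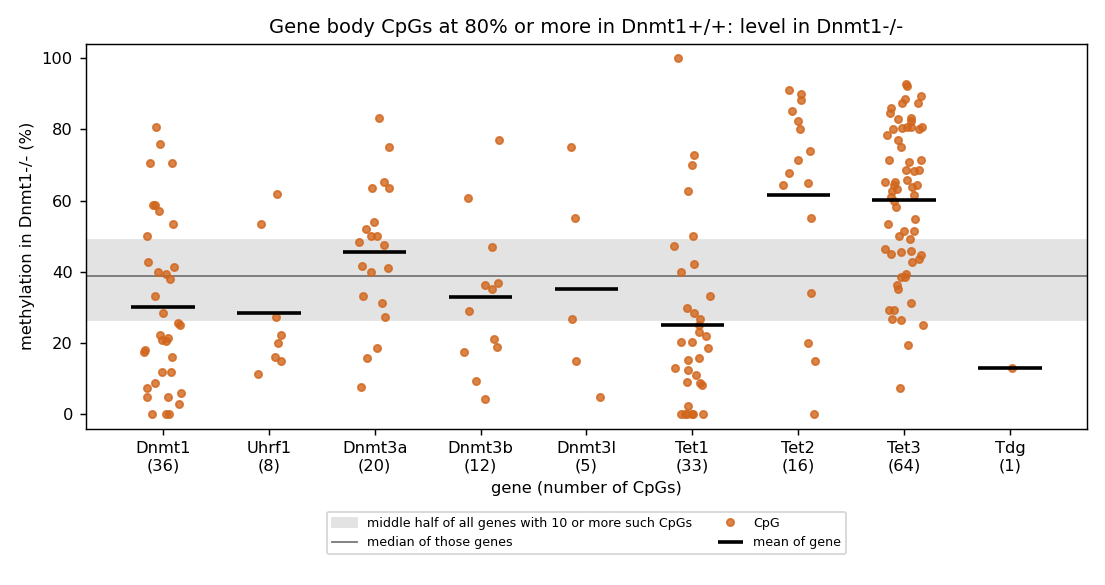
Methylation in Dnmt1-/- in percent of gene body CpGs that were at 80% or more in Dnmt1+/+, by gene, with the number of CpGs in brackets. Points are CpGs, black bars their means, the grey band spans the quartiles (26.4 to 48.8%) and the grey line is the median (38.9%) of 5729 genes. The means of Tet2 and Tet3 lie above the band, and that of Tet1 below it.

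Read depth was compared along Dnmt1, the mutated gene, as a description only, since the sources used here do not give where the allele is altered. Divided by each library's total, depth over its 127 CpGs was 1.24 times as high in Dnmt1-/- as in Dnmt1+/+ (5994 and 4605 calls). All of chromosome 9 had a ratio of 1.20, so that Dnmt1 was at 1.04 relative to its chromosome. Of 894 genes on chromosome 9 with at least 20 CpGs, 69.5% had a lower ratio than Dnmt1, and the quartiles of those genes were 1.12 and 1.26. Other chromosomes differed too. Tet3 had a ratio of 1.29 on chromosome 6 (1.25), Dnmt3b 0.998 on chromosome 2 (0.897), and Tet1 0.846 and Tdg 0.817 on chromosome 10 (0.908). Chromosome ratios ran from 0.718 on chromosome 13 to 1.32 on chromosome X.

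Inside Dnmt1 the ratio over 5 kb bins ran from 1.03 to 1.44, and over single CpGs from 0.736 to 2.61. Measured CpGs covered 60 of the 129 CCGG or TCGA CpGs in its window. No CpG was measured between 10 and 15 kb into the gene, where the genome has 75 CpGs, nor in either flank. The longest stretch without a measured CpG was 7.07 kb, and each other gene of the 9 had a stretch of 4.77 to 17.4 kb. Since a CpG had to reach 10 calls in both libraries to be listed, a segment absent from 1 library would appear as such a gap, and a gap cannot be told apart from sequence that RRBS does not cover.

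**Figure D5:**
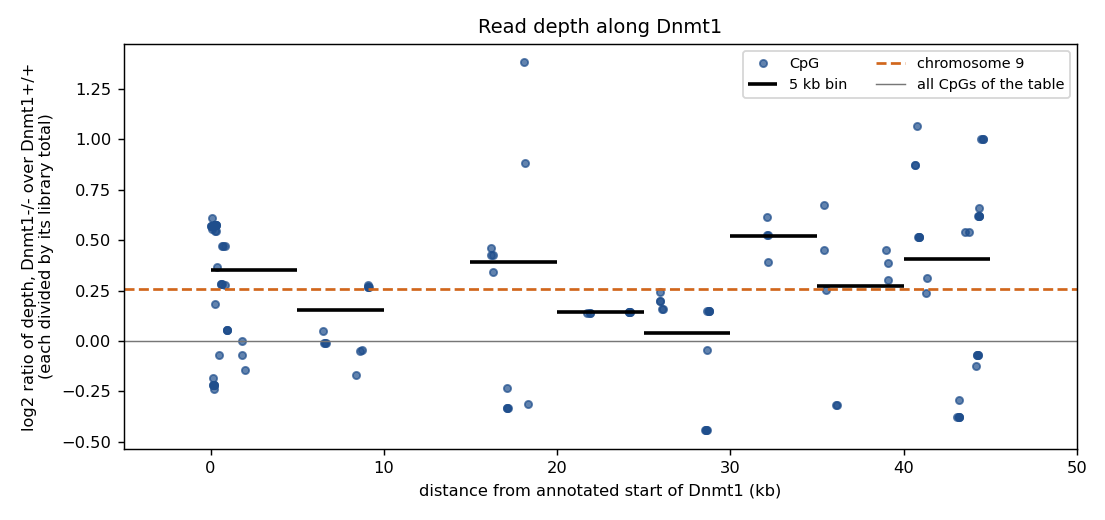
Log2 ratio of depth in Dnmt1-/- over Dnmt1+/+, each divided by its library total, against distance from the Dnmt1 start in kb. Points are CpGs, black bars 5 kb bins, the dashed line is chromosome 9 (ratio 1.20) and the grey line all CpGs of the table. Bins scatter around the chromosome 9 line, from 1.03 to 1.44 as ratios.

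A list of 32 other genes of the pathway, among them readers of methylated CpGs, base excision repair enzymes and genes that feed the methyl donor cycle, gave 29 promoters with at least 5 CpGs. Of these, 7 were lower by 10 points or more, 0 were higher and 22 lay within 10 points, a share of lower promoters close to the 23.9% of all protein-coding promoters. The medians were 3.24% in Dnmt1+/+ and 1.54% in Dnmt1-/-. Dppa3, a maternal factor that protects methylation in the early embryo, had by far the widest gap, 80.2% in Dnmt1+/+ and 10.9% in Dnmt1-/-. Trim28, a corepressor, was at 22.0% and 1.68%, and the glycosylase gene Mbd4 at 26.0% and 7.67%. Ehmt2, a histone H3 lysine 9 methyltransferase, was at 33.3% and 15.6%, the highest Dnmt1-/- promoter of the list. Idh2, which makes the cofactor of the TET enzymes, was at 23.2% and 11.2%, Mbd3 at 22.1% and 10.5%, and Zbtb4, a reader of methylated CpGs, at 15.4% and 5.31%. These promoters take in CpGs within 1 kb of any GENCODE start, which can be much of the gene. They held from 7 of 16 measured window CpGs outside CCGG and TCGA in Dppa3 to 92 of 93 in Mbd3 and 22 of 22 in Trim28. Values at the first start alone were not computed. All 16 bodies with at least 5 CpGs were lower by 10 points or more, beside 95.2% of all protein-coding bodies, with medians of 85.7% and 36.6%.

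Among 5805 genes with at least 10 CpGs in promoter and body, those most like Dnmt1 over the 4 values (promoter and body in each library) were Pkd2, Cby1 and Prkaa1, at root sum of squares distances of 1.17, 1.25 and 1.33 points. For Tet1 the nearest genes were Ttll10, Gna15 and Gramd2, at 12.6, 13.3 and 14.5 points. By GENCODE starts, on which these distances rest, the Tet1 body (44.7% in Dnmt1+/+ and 13.2% in Dnmt1-/-, 92 CpGs) includes the island at the RefSeq start, and distances with the RefSeq start added were not computed.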

How the data were processed

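Genomic DNA from 1 Dnmt1+/+ and 1 Dnmt1-/- MEF culture was bisulfite sequenced and mapped by a service provider to mm9, with Bismark named in the submitters' processing notes and its version not given in the sources used here. Deposited depths are counts of reads with a methylation call at each CpG, and the authors left out CpGs under 10 calls in either library. The authors' percent is methylated calls over all calls at the CpG. Samples were grouped by the genotype in their labels.

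Positions were matched to NCBIM37 and GENCODE vM1, and RefSeq starts were placed by exact match of their promoter sequence. Coordinates are 1-based. The members, gene lists and rules were chosen with earlier results of these data known. Promoters were CpGs within 1 kb of any GENCODE start of the gene. Medians and counts over promoters, bodies or windows needed at least 5 CpGs per gene, and some levels named singly rest on fewer. Methylated and unmethylated calls were compared per CpG with Fisher's exact test (two-sided), adjusted by Benjamini-Hochberg over all 1790826 CpGs, 996064 of them outside CCGG and TCGA. The test was checked on simulated data. No test was run over CpGs, genes or genotypes. Named were all 9 genes, their 1 kb tiles with at least 5 CpGs by largest fall, highest Dnmt1-/- mean or a rise of 10 points, promoters that differed by 10 points, pathway genes of the same kind with the 3 highest Dnmt1-/- promoters, and the 3 nearest genes of Dnmt1 and Tet1. Single CpGs, the shore of the Tet1 island and the body CpGs at 80% or more in Dnmt1+/+ were chosen after their values were seen.

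Over the table, Dnmt1+/+ had 74636195 calls (median depth 29) and Dnmt1-/- had 78401157 (median depth 30). A CpG with 0 methylated calls at a depth of 10 allows up to 30% (3 calls). Wilson intervals and this limit hold counting error alone, since without molecular identifiers reads of 1 molecule copied by PCR cannot be told from separate molecules. They also take each call as a separate read, which was not tested at CpGs with far more calls than their neighbours. Alternatives were depth, all CpGs, a cap at the 99th percentile of depth, thinning, thresholds, promoter definitions and depth scaling. Python 3.11.15, numpy 2.4.6, pandas 2.3.3 and numba 0.67.0 were used. The study's ChIP and RNA data were not used here.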

Additional observations from a re-analysis of the deposited data

How the results depend on the processing

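The falling direction of the medians over windows, promoters and bodies held under each alternative run, but the sizes moved. Against 232 lower and 5 higher calls of 754 CpGs (30.8% lower, background of all CpGs tested 44.2%), there were 141 and 1 of 491 with a depth of at least 20 (28.7% lower, background 38.5%), 417 and 7 of 1205 with all CpGs (34.6%, background 43.7%), 200 and 2 of 754 with an adjusted p under 0.01 (26.5%, background 39.1%), and 109 and 0 of 754 after thinning to 10 calls (14.5%, background 22.9%). The share of lower calls was below this background in each of these. Starting levels differed, with 238 of the 754 CpGs at 80% or more in Dnmt1+/+, beside 377268 of 996064 in the table. Higher calls made up 0.204% with a depth of at least 20 (background 0.853%) and 0.581% with all CpGs (0.462%). They made up 0.265% with an adjusted p under 0.01 (0.412%) and 0% after thinning (0.0457%). The median window difference of -16.3 points became -12.4 (depth of at least 20), -18.7 (all CpGs), -17.4 (without CpGs above the 99th percentile of depth), -29.7 (gene body only), -11.5 (pooled calls) and -36.5 (without CpGs within 1 kb of another gene's start). The promoter difference of -3.21 points became -2.63 (depth of at least 20), -3.83 (gene body only) and -1.94 (pooled calls) over the same 8 genes. The settings that follow also changed which genes had at least 5 CpGs. With all CpGs Dnmt3l was added and the median was -4.49 (9 genes, -4.46 over the 8). With the start of the gene record only Tet1 was lost and it was -1.01 (7 genes, from -2.82). Without CpGs near another gene's start Dnmt3b and Tet3 were lost and it was -4.22 (6 genes, -4.22 also before the removal). The body difference of -42.1 points became -45.9 (depth of at least 20), -33.9 (all CpGs), -36.0 (promoter of 500 bp), -36.7 (start of the gene record only) and -47.0 both with RefSeq starts added and without CpGs near another gene's start. Scaled to chromosome 9, the Dnmt1 depth ratio was 1.04.

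For Tet1 the promoter difference of -53.7 points became -20.3 points when its RefSeq start was added. Of 222 differences recomputed for single genes, 76 moved by more than counting error and 0 reversed among those of 10 points or more. The RefSeq starts, the removal of CpGs near other genes, the chromosome 9 scaling and the changes to the body CpGs at 80% or more were chosen after seeing the data. With all CpGs, the Dnmt1-/- means of those body CpGs lay closer together, at 47.0% in Tet1, 48.0% in Dnmt1, 63.6% in Tet3 and 67.8% in Tet2. No paired analysis was possible because neither Dnmt1+/+ nor Dnmt1-/- had more than 1 library. No replicate could be left out for the same reason.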

Other observations

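Neighbouring CpGs of equal depth held very different levels in Dnmt1-/-. These CpGs were picked after their values were seen. In an intron of Dnmt1 43.2 kb from the start, position 20714109 was at 11.8% and positions 20714119 and 20714123 at 70.6% in Dnmt1-/-, each with 17 calls, although all 3 were at 95.2% in Dnmt1+/+. In a coding exon near the 3′ end of Dnmt1, position 20712977 was at 58.7%, position 20712989 at 41.3% and position 20712999 at 20.6% in Dnmt1-/-, each with 126 calls. Nearby position 20712950 had 63 calls in Dnmt1-/-, and whether reads were counted more than 1 time at these 3 was not tested. In Tet2, position 133132537 was at 0% and position 133132567 at 90% in Dnmt1-/-, each with 10 calls, from 83.3% and 91.7% in Dnmt1+/+.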
